A study of Mus musculus with 4 samples.

Results

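Replication-dependent histone genes are the 67 protein-coding genes, of 55401 gene models measured in each library and 21897 of them protein-coding, whose GENCODE M21 mouse symbol begins with Hist1h to Hist4h. Membership went by name and not by any measured value, and 3 pseudogenes with such symbols were left out. Earlier results of these data were known when the set was chosen. The set holds 6 linker histone genes (H1), 18 H2A, 18 H2B, 12 H3 and 13 H4 genes. On mm10 (GRCm38), 54 lie in the Hist1 cluster on chromosome 13, 10 in Hist2 on chromosome 3, 2 in Hist3 on chromosome 11 and 1 (Hist4h4) on chromosome 6.

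The RNA came from mouse bone marrow cells that the labels call long-term hematopoietic stem cells (HSCs), and that the text of the study also calls hematopoietic stem and progenitor cells. KO mice carried Cpt1a fl/fl together with Vav1-Cre, which deletes the floxed gene in blood cells from early development on, so the loss is neither limited to HSCs nor recent. Control mice carried Cpt1a fl/fl without Cre and are given the genotype WT in the labels. All were unstressed adult mice on normal chow, on a C57BL/6 background. There were 2 KO and 2 Control libraries, made by polyA selection. Whether the replicates were taken from different mice is not said in the labels, and the p-values therefore reflect only how far these libraries differed, which may be technical.

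In dividing cells, most new chromatin is packed with histones made from these genes during S phase. H2A, H2B, H3 and H4 form the core of the nucleosome, and H1 binds the DNA between nucleosomes. Most of their mRNAs carry no polyA tail. They end a few bases past a conserved stem-loop that is bound by the stem-loop binding protein SLBP, and many of the genes are near-identical copies that encode the same protein. A polyA-selected library captures such mRNAs poorly, and the values below describe the captured part of them and not the whole histone mRNA pool.

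The stem-loop was searched for downstream of the stop codon in the annotated transcripts, as the conserved histone motif of 16 bases. The motif has an arm of 6 bases, a loop of 4 and a second arm of 6. Most letters were fixed or limited to C or T, or to A or G. Pairing between the arms was not checked base by base, so a match need not form a stem. The motif was present in 46 of the 67 genes, against 16 other protein-coding genes (0.073%), among them the H2A variant gene H2afx. It began 21 to 58 bases after the stop codon, with a median of 31. There were 8 distinct sequences of it, and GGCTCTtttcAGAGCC alone was found in 26 genes. The lines that follow show the 12 bases before the stem-loop and the stem-loop, 5′ to 3′, for the 4 genes of highest mean level (Hist1h2ap, Hist1h2bg, Hist1h1c and Hist1h4i), for Hist1h2ao, the near-identical copy of Hist1h2ap, and for 3 genes that differ from this pair in the bases upstream. Capitals mark the arms of the stem.
Hist1h2ap: aaaaaaaaaaaaGGCTCTtttcAGAGCC
Hist1h2ao: aaaaaaaaaaaaGGCTCTtttcAGAGCC
Hist1h2ae: aaaaaaaacaaaGGCTCTtttcAGAGCC
Hist1h3c: tatttaaaaaaaGGCTCTtttaAGAGCC
Hist1h2ag: atcgccaacaaaGGCTCTtttcAGAGCC
Hist1h1c: aacaatccaaaaGGCTCTtttcAGAGCC
Hist1h2bg: tcctaacccaaaGGCTCTtttcAGAGCC
Hist1h4i: atgctacttaaaGGCCCTttttAGGGCC

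These stretches, all in 3′ untranslated exon sequence and credited to GENCODE M21 transcripts, lie on the minus strand at chr13:21833029-21833056 (Hist1h2ap), chr13:23570668-23570695 (Hist1h2ae), chr13:23745047-23745074 (Hist1h3c), chr13:22042483-22042510 (Hist1h2ag) and chr13:22040966-22040993 (Hist1h4i). Those on the plus strand are chr13:21810886-21810913 (Hist1h2ao), chr13:23739500-23739527 (Hist1h1c) and chr13:23571831-23571858 (Hist1h2bg). In Hist1h2ap and Hist1h2ao all 12 bases before the stem-loop are adenine. The median over the 46 genes was 6 adenines of 12 and the lowest was 3. Hist1h2ae came next with 11, broken by a C. The longest unbroken run that touches the stem-loop in any other gene of the set was the 7 adenines of Hist1h3c.

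The annotated 3′ ends fell into 3 classes. In 23 genes the transcript ran more than 100 bases past the stem-loop (long end), in 23 it stopped within that distance (short end), and in 21 the annotated transcript held no stem-loop, often because it ends at the coding sequence. An AATAAA or ATTAAA, the signal for cleavage and polyadenylation, stood in the last 50 bases of 17 of the 67 genes (25.4%), against 80.8% of all protein-coding genes. It was found in 12 of the long ends, 2 of the short ends and 3 of those with no stem-loop. A gene was counted if any of its annotated transcripts held the signal. Genes with several transcripts thus had more chances, and most histone genes had 1. Of the 67 genes 62 were annotated with a single exon. In RefSeq promoters (GRCm38.p6, 250 bases before to 50 after the start, 61 genes matched), CCAAT on either strand was present in 52 (85.3%), against 41.1% of 27025 genes, and TATAAA in 35 (57.4%), against 15.7%. A match describes the letters and is not evidence of binding.

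Estimated counts summed to 34083159 and 33909781 in KO replicates 1 and 2, and to 20589218 and 23291747 in Control replicates 1 and 2, so the KO libraries were the deeper ones. Cpt1a, the targeted gene, was 11.5 and 19.2 TPM (abundance corrected for gene length, with every library scaled to 1 common sum) in KO and 37.0 and 35.6 TPM in Control, and fell by 1.596 on the log2 scale (SE 0.15, edgeR adjusted p = 0.00695). Without KO replicate 1 or 2 its adjusted p was 0.0997 or 0.0839. HSC markers (10 of 10 measured, Kit, Hlf and Procr in every library, Hoxb5 at 0 to 1.33 CPM, which is the count scaled by the library total) summed to 1394 and 1418 CPM in KO and 1317 and 1416 CPM in Control. At an adjusted p under 0.05, which 0.451% of all genes tested passed higher in KO and 0.212% lower, other cell types' markers differed between the groups: B lineage markers rose in 9 of 9 (539 and 379 CPM in KO, 60.9 and 81.2 CPM in Control, none at 0), mast cell and basophil markers rose in 4 of 9 (254 and 306 CPM, against 59.98 and 34.7 CPM with 3 and 5 genes at 0), and erythroid markers fell in 5 of 12 (578 and 660 CPM, against 1513 and 1380 CPM, none at 0). Lymphoid-primed progenitor markers rose in 3 of 6 and neutrophil markers fell in 1 of 9. The markers were chosen after their values were seen, so these counts describe the libraries and are no test of a difference in cell types. Control replicate 2 stood apart in immediate early genes, with Fos at 105 and 70.0 CPM in KO and 112 and 2541 CPM in Control replicates 1 and 2, and Jun at 319 and 259 CPM in KO and 375 and 2782 CPM in Control. In bulk RNA, fewer cells of a type and less RNA per cell cannot be told apart.

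Histone transcripts were a small part of each library. All 67 genes together took 0.0545% (95% exact binomial interval 0.0537 to 0.0553) and 0.0561% (0.0553 to 0.0569) of the counts in KO, and 0.0657% (0.0646 to 0.0668) and 0.0785% (0.0774 to 0.0797) in Control. These intervals cover counting error only. At least 1 count was assigned to 57 and 47 of the genes in KO, against 37 and 43 in Control. Over all 55401 gene models, 16657 and 15346 had at least 1 count in KO, against 14358 and 14742 in Control. In all 4 libraries 25 histone genes were detected, 38 in 1 to 3 libraries, 12 in KO only and 4 in Control only. The share of all gene models detected in 1 group only was not computed. The KO libraries had more reads with which to detect a rare transcript, and a count of 0 allows up to 0.088 and 0.0885 CPM in KO and 0.146 and 0.129 CPM in Control. The 4 genes that no library detected were Hist1h1t, Hist1h2aa and Hist1h2ba, which encode testis histones, and Hist1h2bf.

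**Figure D1:**
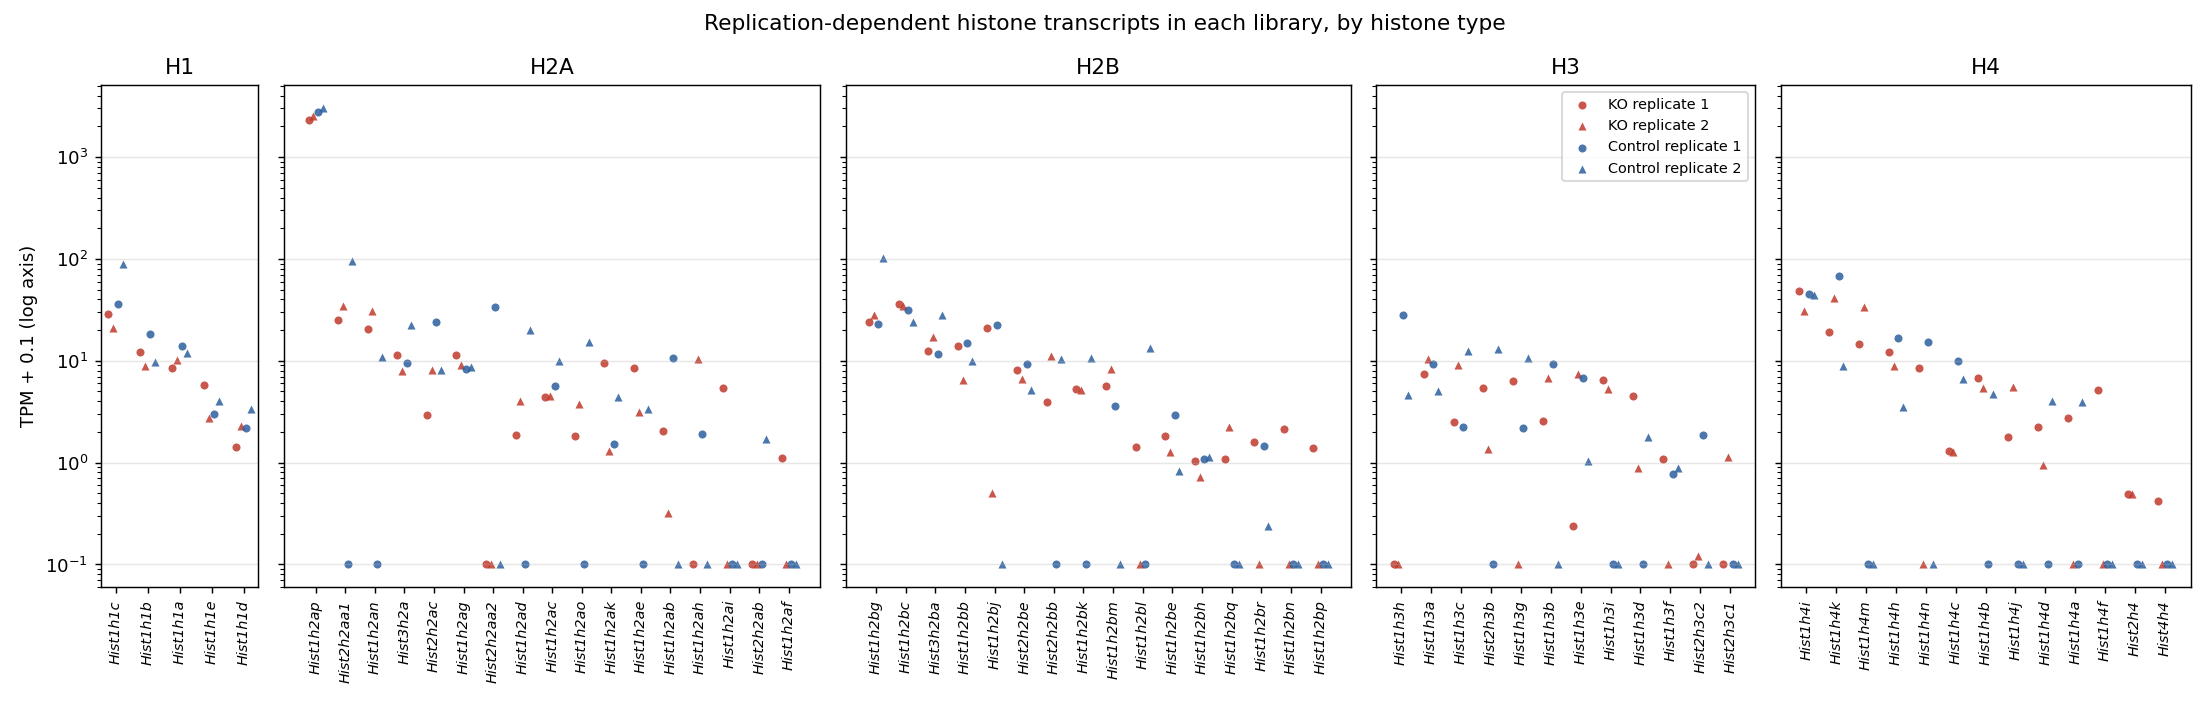
Level of each detected histone gene in each library, by type, as TPM + 0.1 on a log axis, with 1 point per library (red KO, blue Control, circle replicate 1, triangle replicate 2). Hist1h2ap lies at 2294 to 3048 TPM in the 4 libraries, and every other gene lies near or under 100 TPM, with many points on the floor that stands for 0.

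A single H2A gene carried most of the signal. Hist1h2ap (ENSMUSG00000094777, chr13:21833026-21833507, minus strand, a single exon) encodes a core H2A and was measured at 2294 and 2503 TPM in KO and 2778 and 3048 TPM in Control. It stood at rank 75 and 67 among all gene models by TPM in KO and 55 and 47 in Control. It held 83.3% and 84.7% of the summed histone TPM in KO, and 84.7% and 82.5% in Control. By count, without a correction for length, its share was lower, at 67.0% and 71.0% in KO and 70.1% and 62.5% in Control. Its rank by count among all gene models was 397 and 352 in KO and 276 and 255 in Control. The mean of Hist1h2ap over the 4 libraries, 2656 TPM, was 59.9 times that of the next gene, Hist1h2bg, at 44.4 TPM. This is also the gene in which 12 adenines stand directly before the stem-loop. Its near-identical copy Hist1h2ao, with the same 12 adenines, was listed at only 1.72 and 3.67 TPM in KO and 0 and 15.1 TPM in Control. The annotated transcripts of these genes share 93.1% (Hist1h2ap) and 93.5% (Hist1h2ao) of their 50-base windows, so the division of reads between them is uncertain, and their sum is the safer value. No AATAAA or ATTAAA was present in the last 50 bases of either. A run of 12 or more adenines stood within the last 50 bases of the transcript in 3.07% of protein-coding genes and in 1 of the 67 histone genes, Hist1h2ap. This depends on the annotated end, 3 bases past the stem-loop in Hist1h2ap and 31 in Hist1h2ao. Anywhere in the transcript, such a run stood in 12.6% of protein-coding genes and in 3 histone genes. The third was Hist1h2ac, with 15 adenines lying 1187 bases before its end and a mean of 6.0 TPM. For both shares a gene was counted if any of its annotated transcripts held such a run. Whether the run of Hist1h2ap has a part in the capture of its transcript was not tested.

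**Figure D2:**
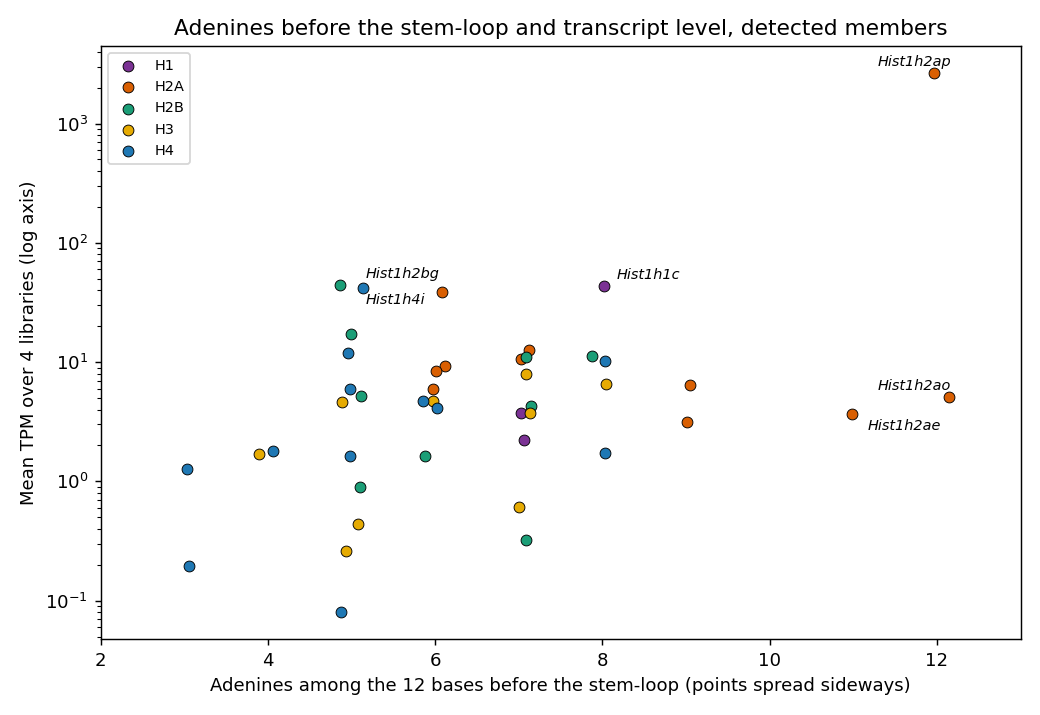
Adenines among the 12 bases before the stem-loop (horizontal axis, points spread sideways) against mean TPM over the 4 libraries (log axis), for histone genes that hold a stem-loop and were detected, coloured by type. Hist1h2ap, at 12 adenines, is at 2656 TPM, while Hist1h2ao, also at 12, and Hist1h2ae, at 11, lie among the other genes at 5.11 and 3.69 TPM.

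Apart from Hist1h2ap, 16 genes averaged over 10 TPM, 34 averaged 1 to 10 TPM and 16 averaged under 1 TPM. The core histones that are made in equal amounts as proteins were thus far from equal as captured RNA. Without Hist1h2ap, the H2A genes summed to 105 and 117 TPM in KO and 94.2 and 199 TPM in Control. The H2B genes summed to 139 and 121 TPM in KO, against 121 and 206 TPM in Control, and the H4 genes to 123 and 127 TPM, against 154 and 75.2 TPM. The H3 genes were lowest, at 35.6 and 41.6 TPM in KO and 59.8 and 48.9 TPM in Control.

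Replication-independent variants are encoded mostly by genes with ordinary polyadenylated mRNAs, and they are a useful scale for these levels. H3f3a and H3f3b, which encode the H3.3 variant, summed to 1625 and 1687 TPM in KO and 1662 and 2419 TPM in Control. The 12 replication-dependent H3 genes made up 2.15% and 2.40% of the H3 total so formed in KO, and 3.48% and 1.98% in Control. For H2A, 6 variant genes (H2afx, H2afz, H2afv, H2afj, H2afy, H2afy2) summed to 3707 and 3776 TPM in KO and 3303 and 3439 TPM in Control. The 18 replication-dependent H2A genes made up 39.3% and 41.0% of that total in KO and 46.5% and 48.6% in Control, and without Hist1h2ap 2.75% and 3.0% in KO and 2.77% and 5.46% in Control. For the linker histones the split was closer, with the 6 H1 genes at 28.0% and 22.8% of their sum with H1f0 and H1fx in KO, and 34.2% and 49.0% in Control.

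KO and Control were then compared gene by gene, to ask whether loss of Cpt1a, in a study that followed cell cycle genes, went with a change in these S-phase transcripts. No histone gene passed the test. The edgeR quasi-likelihood test was fitted on all 14635 genes with enough counts, of which 50 were histone genes, and called 0 of these 50 at an adjusted p under 0.05, against 0.663% of all genes tested (0.451% higher and 0.212% lower in KO). The lowest adjusted p in the set was 0.305, for Hist1h1c. At an unadjusted p under 0.05 there were 6 of the 50, against 10.4% of all genes tested, with 3 higher in KO (Hist1h4m, Hist1h2bq, Hist1h4j), with 5.81% of all genes higher, and 3 lower (Hist1h1c, Hist1h2ap, Hist1h3h), with 4.61% of all genes lower. DESeq2, which called 1147 genes in all, called 3 histone genes higher (Hist1h4m, Hist1h2bq, Hist1h4j), with 4.29% of all genes, and 3 lower (Hist1h2ap, Hist1h3h, Hist1h4c), with 3.55% of all genes. Limma on log2 TPM called 0.

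The median log2 fold change of the 50 histone genes was -0.33, with 33 of them negative, against 0.0087 for all genes tested, of which 49.1% were negative. The sign of the histone median was not stable: it was 0.15 with the replicate number as a block, 0.21 with limma on log2(TPM + 0.1), and 0.02 and 0.12 without Control replicates 1 and 2. Over the 25 genes with a count in every library, which are not subject to groups at 0, it was -0.41, with 19 negative. By type the medians were -0.52 for H1 (5 genes tested), -0.73 for H2A (11), -0.10 for H2B (13), -0.23 for H3 (10) and -0.22 for H4 (11). Both KO libraries lay below both Control libraries in CPM for 8 of the 50 genes (16%, against 18.3% of all genes tested) and above them for 10 (20%, against 23.6%). In the other 32 the groups overlapped. The 17 genes that were not tested had at most 137 counts in any library, that being Hist2h2aa2 in Control replicate 1.

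**Figure D3:**
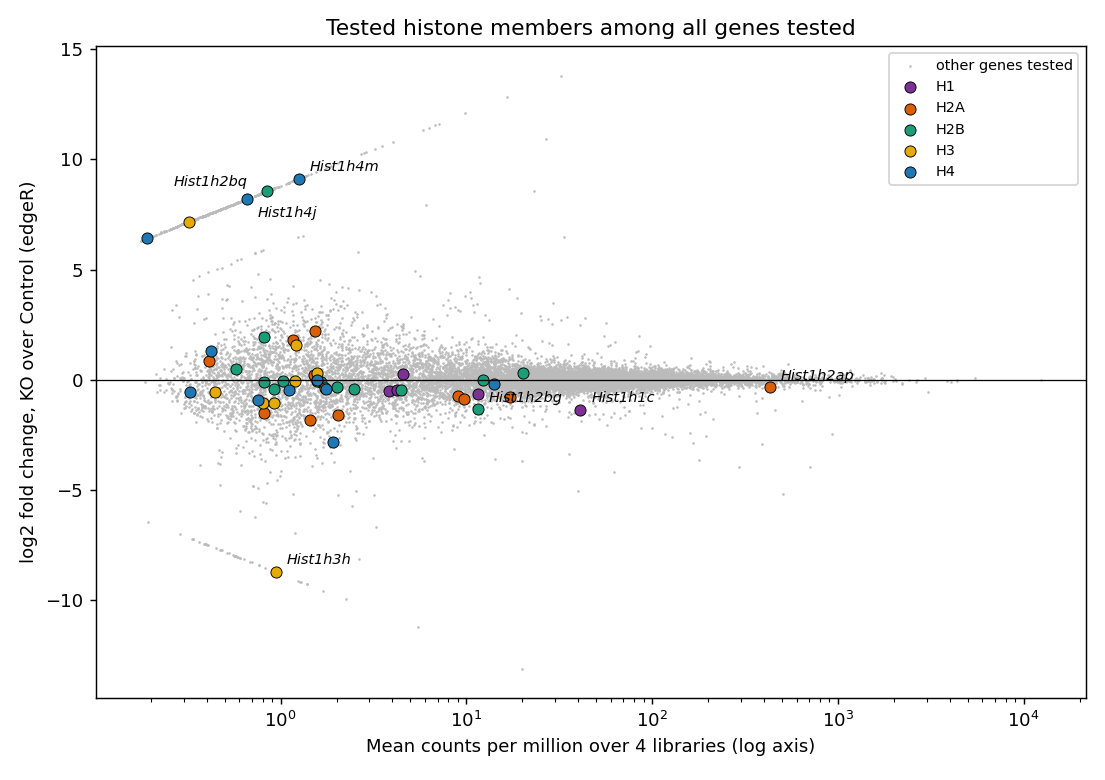
Log2 fold change of KO over Control (vertical axis, edgeR) against mean CPM over the 4 libraries (log axis), with the 50 tested histone genes in colour by type over all genes tested in grey. Hist1h2ap lies at the right at -0.33, most histone genes lie under 10 CPM where the grey cloud is widest, and the diagonal lines at the top and bottom are genes with no count in 1 of the groups, among them Hist1h4m and Hist1h3h.

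**Figure D4:**
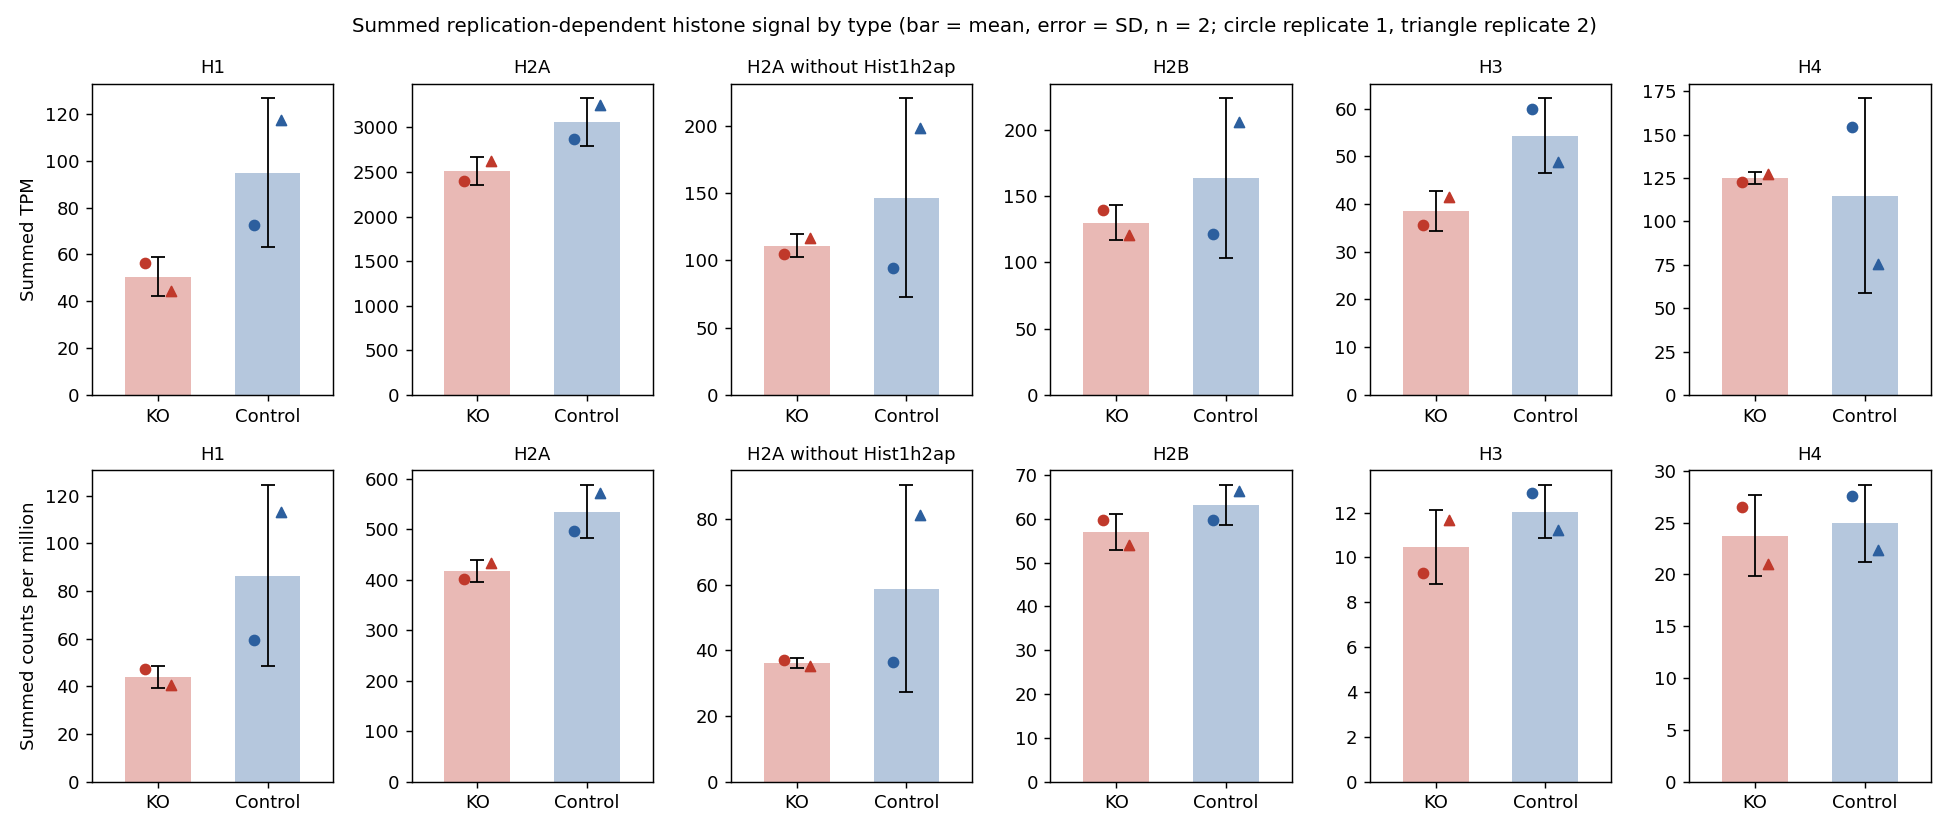
Summed TPM (upper row) and summed CPM (lower row) by histone type, with the KO bar left of the Control bar, bars for means, error lines for SD (n = 2 each) and a point per library. The KO points lie below both Control points for H1 and H2A on both scales, and Control replicate 2 is the high point in H1, in H2A without Hist1h2ap and in H2B.

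Summed over all 67 genes, the histone signal was lower in KO, at 545 and 561 CPM, against 657 and 785 CPM in Control, a ratio of means of 0.767. Without Hist1h2ap it was 180 and 162 CPM in KO and 196 and 294 CPM in Control, a ratio of 0.698. The groups did not overlap in either sum. These are values with no test, since 2 libraries against 2 cannot reach an exact permutation p below 0.333.

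The sum of the linker histone genes was 56.4 and 44.5 TPM in KO and 72.6 and 117 TPM in Control, a ratio of 0.531. Its log2 ratio of -0.91 was -0.52 without Control replicate 2, and in CPM -0.98 and -0.44. Most of the difference came from Hist1h1c, which encodes a somatic linker histone and has a long 3′ end with a polyA signal. Hist1h1c (ENSMUSG00000036181, chr13:23738808-23740367, plus strand) was 29.0 and 20.95 TPM in KO and 35.7 and 88.8 TPM in Control. Both KO libraries were below both Control libraries, and the Control replicates differed from each other more than Control replicate 1 differed from KO. Its log2 fold change was -1.37 (SE 0.40, edgeR adjusted p = 0.305). It was -0.54 without Control replicate 2 (adjusted p = 0.389) and -1.89 without Control replicate 1 (adjusted p = 0.0105). Each of these fits keeps 1 Control library, whose spread is then taken from KO and from other genes, and the second keeps the library in which Hist1h1c was high, so its p does not stand for a difference between the groups. Only 8.54% of its 50-base windows occur in other genes, and its counts are therefore little affected by copies. Hist1h1b, which encodes another somatic linker histone, was 12.1 and 8.70 TPM in KO and 18.2 and 9.57 TPM in Control, and the groups overlapped (log2 fold change -0.46, SE 0.69, adjusted p = 0.921, and 0.065 without Control replicate 1). Of the 5 H1 genes tested, Hist1h1e alone had a positive log2 fold change (0.26), and Hist1h2be overlaps it on the same strand.

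The H2A sum followed Hist1h2ap. It was 2399 and 2619 TPM in KO and 2872 and 3246 TPM in Control, a ratio of 0.820. Hist1h2ap averaged 2398 ± 148 TPM in KO and 2913 ± 191 TPM in Control (SD, n = 2 each), and the groups did not overlap. Its log2 fold change was -0.33 (SE 0.098, edgeR adjusted p = 0.316), and with Hist1h2ao added it was -0.33 (SE 0.099, adjusted p = 0.315). The difference was small and the replicates were close, and it passed with DESeq2 (adjusted p = 0.0039). Without Hist1h2ap the H2A sum overlapped between the groups, at 37.2 and 35.1 CPM in KO and 36.6 and 81.1 CPM in Control. In that remainder Control replicate 1 lay between the KO libraries, and Control replicate 2 was the high one.

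Other H2A genes were low or divided among copies. Hist3h2a was 11.2 and 7.75 TPM in KO and 9.33 and 22.1 TPM in Control, with overlap between the groups (log2 fold change -0.78, SE 0.44, adjusted p = 0.590, and -0.0052 without Control replicate 2), and 31.5% of its windows are shared with Trim17, which overlaps it on the same strand. Hist1h2an was 20.5 and 31.0 TPM in KO and 0 and 10.7 TPM in Control (log2 fold change 2.20, SE 1.98, adjusted p = 0.799). Hist1h2an shares 80.5% of its windows with Hist1h2ah, 1 of 6 H2A genes that were summed as near-identical copies. That sum was 4.87 and 6.47 CPM in KO and 1.58 and 6.98 CPM in Control, so the groups overlapped (log2 fold change 0.38, SE 0.78, adjusted p = 0.952).

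For H2B the sum was 59.8 and 54.1 CPM in KO and 59.8 and 66.3 CPM in Control, a ratio of 0.903, and in TPM the groups overlapped and the log2 ratio turned to 0.10 without Control replicate 2. Hist1h2bc, an H2B gene annotated with a spliced transcript and no stem-loop in it, was steady, at 35.7 and 34.3 TPM in KO and 31.5 and 24.1 TPM in Control. Both KO libraries were above both Control libraries (log2 fold change 0.29, SE 0.27, adjusted p = 0.801). Hist1h2bg was 23.8 and 27.8 TPM in KO and 23.1 and 103 TPM in Control. Control replicate 1 lay with the KO libraries, and Control replicate 2 was far above all of them. The log2 fold change was -1.33 (SE 0.64, adjusted p = 0.524). Its direction turned without Control replicate 2 (0.12, adjusted p = 0.934), and it was -2.04 without Control replicate 1 (adjusted p = 0.0357), a fit that keeps only the high Control library. Hist3h2ba was 12.3 and 17.1 TPM in KO and 11.5 and 28.3 TPM in Control, again with Control replicate 2 highest (log2 fold change -0.48, SE 0.71, adjusted p = 0.919, and 0.31 without that library).

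H3 and H4 genes, which encode the core tetramer, were low one by one. The H3 sum was lower in KO in TPM (ratio 0.710, no overlap), but in CPM it was 9.31 and 11.6 in KO and 12.9 and 11.2 in Control, which overlap. Hist1h3h alone, at 0 TPM in both KO libraries, was 28.1 of the 59.8 TPM in Control replicate 1. In Control replicate 2 it was 4.52 of 48.9 TPM, and without Hist1h3h the TPM sums of the groups overlap. The H4 sum overlapped on both scales, with a ratio of 1.09 in TPM and 0.952 in CPM, so its direction depended on the scale. It also turned with the Control library left out, to log2 ratios of 0.73 in TPM and 0.089 in CPM without Control replicate 1, against -0.30 in TPM and -0.21 in CPM without Control replicate 2. Hist1h4i, whose stem-loop has the GGCCCT arm, led the H4 genes at 48.3 and 30.5 TPM in KO and 44.7 and 44.2 TPM in Control (log2 fold change -0.22, SE 0.34, adjusted p = 0.926, and 0.068 without KO replicate 2). Hist1h4k, annotated with the coding sequence only, spread widely, at 19.2 and 41.3 TPM in KO and 68.0 and 8.69 TPM in Control (log2 fold change -0.43, SE 1.51, adjusted p = 0.976, and 1.76 without Control replicate 1). These were only 32.4 and 69 counts in KO and 74 and 10 in Control. The effective length of 67.85 to 72.65 bases makes the TPM of so few counts high. In Control replicate 1, Hist1h4k was 68.0 of the 154 TPM of the H4 sum. Hist1h4c, named after its values were seen, was 1.19 and 1.18 TPM in KO and 9.82 and 6.55 TPM in Control (log2 fold change -2.83, SE 1.34, adjusted p = 0.520).

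The most extreme fold changes belonged to genes with no count in 1 of the groups, and 4 of these 6 have a near-identical copy in the set. Hist1h4m had 51.4 and 119 counts in KO and 0 in both Control libraries (edgeR adjusted p = 0.319). RSEM's posterior mean counts, which average over the ways shared reads can be divided, were 50.8 and 116 in KO and 1.87 and 0 in Control. Its copy Hist1h4n took 1.04 and 0 CPM in KO and 1.97 and 0 CPM in Control. Added together they were 2.55 and 3.51 CPM in KO and 1.97 and 0 CPM in Control, and the log2 fold change of the sum was 1.61 (SE 1.86, adjusted p = 0.877). Hist1h3h went the other way, with 0 counts in both KO libraries and 67.3 and 11.8 in Control (adjusted p = 0.406), and its posterior means were 1.41 and 0.64 in KO and 59.3 and 6.3 in Control. Its copy Hist1h3i had 0.709 and 0.569 CPM in KO and 0 in both Control libraries, and the sum of the pair overlapped between the groups, at 0.709 and 0.569 CPM in KO and 3.27 and 0.505 CPM in Control (log2 fold change -1.57, SE 1.72, adjusted p = 0.864). Hist1h2bq (23.9 and 91.1 counts in KO, 0 in Control, adjusted p = 0.422) had posterior means of 19.1 and 77.6 in KO and 13.9 and 2.81 in Control, with which its log2 fold change was 1.82 (adjusted p = 0.856). Hist1h2bq shares 97.3% of its windows with Hist1h2br, and the pair summed to 2.74 and 2.69 CPM in KO and 1.89 and 0.199 CPM in Control (log2 fold change 1.36, SE 1.46).

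The clearest switch was in the Hist2 cluster. All counts of the pair Hist2h2aa1 and Hist2h2aa2, inverted copies whose printed 28 bases are the same (agctcctaaaaaGGCTCTtttcAGAGCC, chr3:96246020-96246047 on the plus strand and chr3:96239784-96239811 on the minus strand), were given to Hist2h2aa1 in both KO libraries and in Control replicate 2, and to Hist2h2aa2 in Control replicate 1. Hist2h2aa1 was thus 24.9 and 34.3 TPM in KO and 0 and 95.2 TPM in Control. The pair together was 5.78 and 8.004 CPM in KO and 6.66 and 22.4 CPM in Control (log2 fold change of the sum -1.10, SE 0.58, adjusted p = 0.563). The gene model Gm20634, outside the set, overlaps Hist2h2aa1 on the same strand and shares 89.4% of its windows. Gm20634 was not added, so the sum of the pair may lack reads that were given to it. Hist2h2aa1 alone had a log2 fold change of -0.73 that turned to 10.67 without Control replicate 2 (adjusted p = 0.0202). All 50-base windows of Hist2h2aa2 occur in Hist2h2aa1, and the per-gene values of this pair say how the reads were divided and not which gene was transcribed. Hist1h4j and Hist2h4 also had no count in Control, but no near-identical copy in the set. Hist1h4j (21.2 and 68.0 counts in KO, 0 in Control, posterior means included) had 24.6% of its windows in other genes. With the Control total of 0 set to 3 counts, the pooled share of Hist1h4j was 19.2-fold higher in KO (edgeR adjusted p = 0.450). This fold allows for counting error only and not for the spread between replicates, so it is no lower bound on a difference between the groups. Hist2h4 (13 and 13 counts in KO, 0 in Control, posterior means included) had 1.01% of its windows in other genes (edgeR adjusted p = 0.636).

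**Figure D5:**
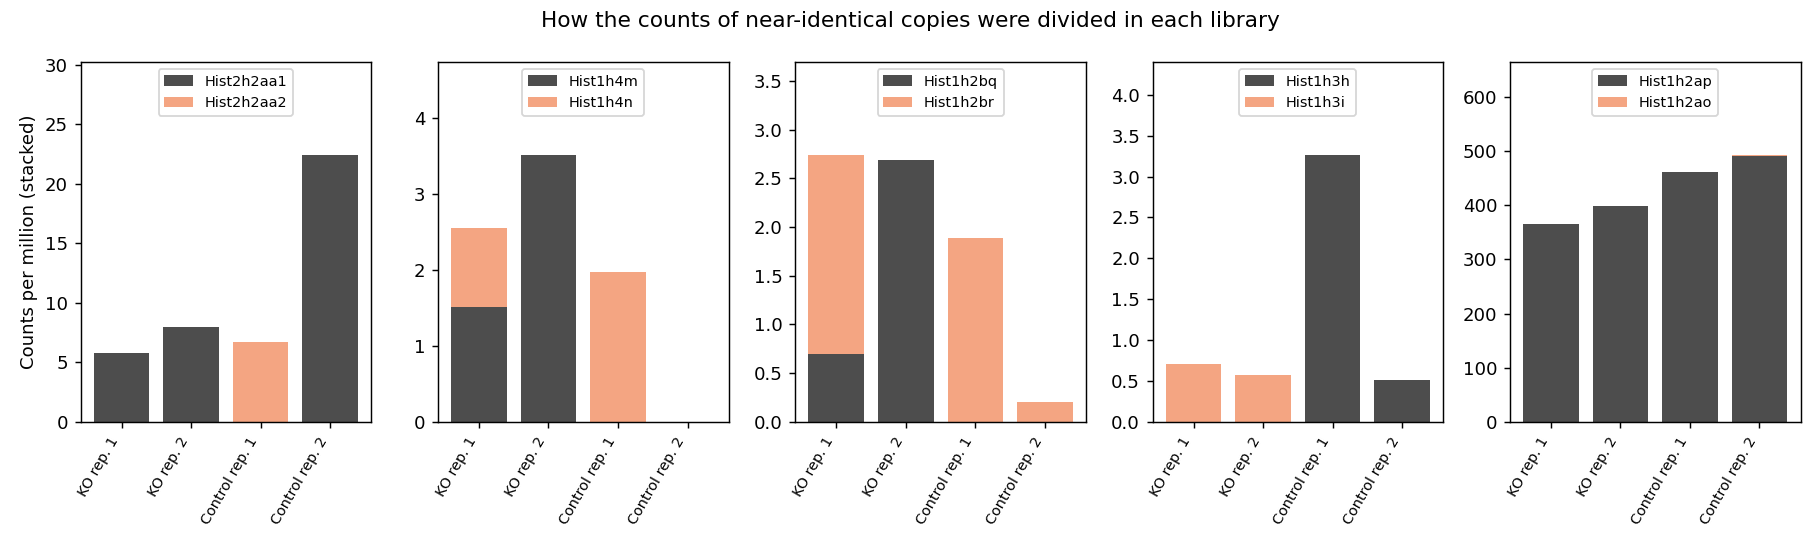
CPM of 5 pairs of near-identical histone genes, stacked, in KO replicates 1 and 2 (left) and Control replicates 1 and 2 (right). The counts of Hist2h2aa1 and Hist2h2aa2, and of Hist1h3h and Hist1h3i, were given whole to 1 copy in each library and to different copies in different libraries, while Hist1h2ap took nearly all counts of its pair in all 4.

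Replicates were far apart for many of these genes. Over the 25 genes with a count in every library, the median absolute log2 ratio between replicates was 0.51 in KO and 0.93 in Control, and 7 of these genes in KO and 11 in Control differed more than 2-fold between replicates. The widest were Hist1h3e in KO and Hist1h4k in Control. Neither this spread nor the ranks of the libraries that follow were computed for all genes tested, so they show no trait particular to histone genes. The library with the highest CPM was KO replicate 1 for 5 of the 25 genes, KO replicate 2 for 2, Control replicate 1 for 9 and Control replicate 2 for 9.

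The genes were also summed by class of 3′ end. Genes with a long end summed to 161 and 135 TPM in KO and 158 and 326 TPM in Control, so 1 library stood apart and the other 3 were close. Of the 12 such genes detected in every library, 7 were highest in Control replicate 2, among them Hist1h1c, Hist1h2bg and Hist3h2a, against 2 of 7 genes with a short end and 0 of 6 with no stem-loop. The difference between these counts was not tested, and the share of all genes tested that were highest in Control replicate 2 was not computed. The counts also leave out genes at 0 in any library, such as the short-ended Hist2h2aa1, which was at 95.2 TPM in Control replicate 2. Short-ended genes without Hist1h2ap summed to 157 and 153 TPM in KO and 171 and 203 TPM in Control, also highest in Control replicate 2, and genes with no annotated stem-loop to 141 and 163 TPM in KO and 173 and 117 TPM in Control. The median gene stood at 1.79 TPM in the long class, 6.41 TPM in the short class and 3.65 TPM in the class with no stem-loop. In CPM, which is not corrected for length, long-ended genes summed to 101 and 84.7 in KO and 108 and 212 in Control. Short-ended genes without Hist1h2ap summed to 26.3 and 27.4 CPM in KO and 31.0 and 43.1 CPM in Control. How these classes stood against each other thus depended on the scale. Control replicate 2 is also the library high in Fos and Jun, and the part of that in these values was not tested.

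The genes that act on histone RNA and protein, and those of the cell cycle, were set beside the histone genes. Of 23 genes for histone transcription and 3′ end processing, all tested, 0 passed at an adjusted p under 0.05, and 1 had an unadjusted p under 0.05 (10.4% of all genes tested had), with a median log2 fold change of -0.016. That gene was Ccne1, encoding cyclin E1, whose kinase phosphorylates the histone gene activator NPAT. Ccne1 was 16.6 and 13.7 CPM in KO and 36.4 and 33.1 CPM in Control, without overlap (log2 fold change -1.21, SE 0.24, edgeR adjusted p = 0.114). Casp8ap2, which encodes the processing factor FLASH, was 89.3 and 87.1 CPM in KO and 71.2 and 71.3 CPM in Control (log2 fold change 0.30, SE 0.13, adjusted p = 0.489). Slbp itself was 135 and 160 CPM in KO and 176 and 130 CPM in Control, with overlap between the groups (log2 fold change -0.06, SE 0.16), and Npat was 52.2 and 49.2 CPM in KO and 57.5 and 60.2 CPM in Control (log2 fold change -0.23, SE 0.16).

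Of 22 histone chaperone genes 0 passed, with a median log2 fold change of -0.0074. Chaf1b, a subunit of the CAF-1 complex that loads H3 and H4 behind the replication fork, was 78.3 and 78.7 CPM in KO and 113 and 96.0 CPM in Control (log2 fold change -0.42, SE 0.13, adjusted p = 0.3495). Anp32e, a chaperone of H2A.Z, was 420 and 416 CPM in KO and 369 and 305 CPM in Control (log2 fold change 0.30, SE 0.11, adjusted p = 0.406). Of 11 replication-independent variant genes 0 passed, with a median of 0.12. H2afy, encoding macroH2A, was 1846 and 2005 CPM in KO and 1567 and 1683 CPM in Control (log2 fold change 0.23, SE 0.081, adjusted p = 0.402), and H2afy2 was 15.6 and 18.8 CPM in KO and 7.82 and 9.79 CPM in Control (log2 fold change 0.95, SE 0.34, adjusted p = 0.406). H3f3b was 668 and 676 CPM in KO and 743 and 1120 CPM in Control, again with Control replicate 2 highest.

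Of 39 S-phase and replication genes 0 passed, with 14 positive and 25 negative log2 fold changes and a median of -0.072. Their sum overlapped between the groups, at 7186 and 7576 CPM in KO and 7778 and 7475 CPM in Control. Pold1, the catalytic subunit of DNA polymerase delta, was 189 and 187 CPM in KO and 225 and 224 CPM in Control (log2 fold change -0.26, SE 0.097, adjusted p = 0.421), and Rfc5, of the clamp loader, was 87.9 and 85.6 CPM in KO and 94.4 and 121 CPM in Control (adjusted p = 0.527). Of 20 G2/M genes 0 passed after adjustment and 7 had an unadjusted p under 0.05, all higher in KO (5.81% of all genes tested were), with 19 positive log2 fold changes and a median of 0.22. Mki67, the proliferation antigen, was 1401 and 1247 CPM in KO and 1096 and 900 CPM in Control (log2 fold change 0.40, SE 0.10, adjusted p = 0.237), and Cenpe, a kinetochore motor, was 175 and 166 CPM in KO and 129 and 114 CPM in Control (log2 fold change 0.48, SE 0.11, adjusted p = 0.198). The difference between these lists and the histone genes was not tested.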

How the data were processed

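RNA from sorted cells kept in RNAlater was extracted with an RNeasy kit, polyA-selected and made into libraries with the NEBNext Ultra II Directional kit. STAR, RSEM and mm10 are named in the processing notes of the submitters. Their versions, the annotation and whether counting used strand were not found in the labels or methods. RSEM divides reads shared by several genes among them. The authors used RSEM to make the deposited expected counts (an estimated count per gene), which are not normalized and need not be whole, and TPM, which scales every library to the same sum per effective length. RSEM's posterior mean count, its posterior SD and effective length came from the same deposited files.

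GENCODE M21 gave symbols to 55141 of 55401 gene models (54349 with the same version). Rounded expected counts went into edgeR 4.0.16 and its quasi-likelihood F test (R 4.3.3, TMM factors 0.985 to 1.01, filterByExpr with a minimum count of 10, genotype as the only term), which left 14635 genes. P-values were two-sided, adjusted over all of these by Benjamini-Hochberg, and called under 0.05. The common dispersion was 0.222. CPM is the expected count over the library total. Copies were summed where at least 75% of 50-base windows were shared between genes of the set, and gene models outside it were not added.

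Alternatives were DESeq2 1.42.0 and its size factors, limma 3.58.1 on log2 TPM with pseudocounts of 1 and 0.1, no filter, a minimum count of 30, effective lengths as an offset, posterior mean counts, a replicate block and leaving out each library. Summed copies, genes detected in every library, and H2A without Hist1h2ap were added after the data were seen. The set and the lists were chosen with earlier results of these data known. Named genes were the 12 histone genes of highest mean TPM, the smallest p in each type, the 2 smallest p in each related list, and Cpt1a. Others (Hist1h4j, Hist2h4, Hist1h4c, Hist1h2ac, copies, the sequence examples, Slbp, Npat, H3f3a, H3f3b and the markers) were chosen after their values were seen.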

Additional observations from a re-analysis of the deposited data

How the results depend on the processing

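The count of histone genes called was 0 with edgeR and also with the other size factors, without a filter, with a minimum count of 30, with effective lengths as an offset, with posterior means, with merged copies and with limma. DESeq2 called 3 higher and 3 lower in KO. Leaving out 1 library gave 0 to 1 called higher (1 without Control replicate 2, Hist2h2aa1, which ranged from -1.73 to 10.67 and reversed to 10.67, adjusted p = 0.0202, with its counts in the remaining Control library given to its copy) and 0 to 2 called lower (2 without Control replicate 1, Hist1h1c and Hist1h2bg). In these fits the lone library of a group is assumed to vary like the others. The median log2 fold change of the set, -0.33, was -0.0206 with limma on log2(TPM + 1) and 0.21 on log2(TPM + 0.1), and -0.38 to 0.12 on leaving out 1 library (0.02 without Control replicate 1, 0.12 without Control replicate 2, -0.04 without KO replicate 2). The summed H2A signal (log2 ratio of CPM -0.36) was -0.70 without Hist1h2ap.

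Cpt1a kept its direction but not its call with effective lengths as an offset (-1.26, adjusted p = 0.368), with limma at a pseudocount of 1 (-1.23) and 0.1 (-1.28), and without KO replicate 1 (-1.49) or KO replicate 2 (-1.71); leaving out each of the 4 libraries gave -1.71 to -1.49. The cause was not tested. Of 187 values of named genes under the alternatives, 174 kept their sign and 13 did not, and 7 had an adjusted p under 0.05. Over all genes the calls numbered 97 with edgeR, 196 without a filter, 1147 with DESeq2, 4 with the length offset, 5 and 0 with limma, 171 and 170 without Control replicates 1 and 2, and 6 and 4 without KO replicates 1 and 2.

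With the replicate number as a block, 98 genes were called, 0 of them histone genes, and the median of the set was 0.15 (lowest adjusted p = 0.269, Hist1h2ap). The numbers do not pair the samples in the labels, and the correlation of deviations between same-numbered libraries across genes was -0.026.

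Most of the set lies at few counts, where a change under several-fold could not have been detected with 2 libraries a group, and reads shared among copies limit all per-gene values. PolyA selection does not target histone mRNA without a tail, and the total histone mRNA was not measured.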
